A study of Mus musculus with 4 samples.

Results

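CAR (constitutive androstane receptor, gene Nr1i3) and PXR (pregnane X receptor, Nr1i2) were followed in nuclei of mouse liver together with P450 reductase (Por) and 5 cytochrome P450 genes of the Cyp2b and Cyp3a families: Cyp2b9, Cyp2b10, Cyp3a11, Cyp3a13 and Cyp3a25. These 8 genes were taken by symbol from the 32285 genes counted, and all 8 were found and passed the filter on low counts. The study, whose title concerns insulin and the spatial pattern of bile acid genes, compared mice fasted for 16 to 24 h with fed mice. Each group had 2 nuclear preparations of flash-frozen liver, and each preparation represented livers of 8 mice. Strain, sex, age and genotype were not given in the sources used here, nor was it stated whether a group's preparations shared their mice, so p-values measure the spread between preparations.

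CAR and PXR are nuclear receptors that pair with the retinoid X receptor and switch on genes for the breakdown and export of drugs, steroids and bile acids. Cyp2b10 is the classical mouse target of CAR, and Cyp3a11 that of PXR, although both receptors can act on both genes. P450 reductase passes electrons from NADPH to every microsomal P450, so these enzymes cannot work without it. In the liver lobule blood runs from the portal to the central vein, and most drug-metabolizing P450s are known as pericentral genes.

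The 4 libraries held between 5396 and 11770 barcodes and between 8078755 and 30955600 unique molecular identifiers (UMIs, counted transcripts). After filtering, 29724 nuclei were kept, of which 18763 in 11 clusters were hepatocyte-like by their markers (3745 to 5399 a library) and are called hepatocytes here. The second fed library (fed 2) was the shallowest, whose hepatocytes had a median depth of 1275 UMIs, while the median was 2542 to 3238 elsewhere. The first fed library (fed 1) stood apart: 36.9% of its hepatocytes fell into a cluster led by the acute-phase genes Saa2 and Saa1, which held 0.0439 to 0.148% of the hepatocytes of the other 3. Because of this, values without that cluster or without a fed library stand beside the results of most members. For Nr1i2 and Cyp3a13 the fasting difference is given as a range over all alternative settings, which include these. Most hepatocyte clusters came almost wholly from 1 library, so that different clusters hold the hepatocytes of the groups compared. One cluster was 98.2% from fed 2 and held 3325 of its 3745 hepatocytes, with Gm42418 and Lars2 among its leading genes. Those of fed 1 lay mainly in 2 clusters that were 99.4% from it, those of fasted 1 in 2 that were 95.4 and 96.2% from it, and those of fasted 2 in 2 that were 95.6 and 94.1% from it. Pairs of libraries shared 12 to 42 barcodes. Levels are given as CPM, counts per 1000000 of the UMIs summed over the hepatocytes of a library.

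All coordinates are on mm10 (GRCm38). Nr1i3 lies at chr1:171213970-171220701 on the plus strand, and 4691 bases of it overlap Tomm40l, a mitochondrial import gene on the opposite strand at chr1:171216011-171222514. Nr1i2 lies at chr16:38248323-38294824 on the minus strand and Por at chr5:135670033-135735326 on the plus strand. The Cyp2b genes sit together on chromosome 7, Cyp2b10 at chr7:25897620-25926624 and Cyp2b9 at chr7:26173411-26210661, both on the plus strand. The Cyp3a genes are on the minus strand of chromosome 5, with Cyp3a11 at chr5:145854426-145879964 close to Cyp3a25 at chr5:145977194-146009618, and Cyp3a13 apart from them at chr5:137892932-137921619. Of all 50-base stretches of its annotated transcripts, Cyp3a25 shared 26.8% with other genes, mostly with Cyp3a59. The same share was 11.2% for Cyp2b9, 8.70% for Cyp2b10 and 6.73% for Cyp3a11, so counts of these genes are less certain, and it was 0 for Nr1i3, Nr1i2, Por and Cyp3a13.

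The 250 bases upstream of the P450 genes' start sites are shown because receptors of this family bind pairs of a 6-base core, AGGTCA or AGTTCA, and because the 5 genes differed in how they were placed in the lobule. The sequences are from RefSeq (GRCm38.p6), 5′ to 3′ on the gene's strand, at chr7:26173159-26173408, chr7:25897408-25897657, chr5:145879855-145880104, chr5:137921620-137921869 and chr5:146009619-146009868, with matches to either core on either strand in capitals. These start sites are those of RefSeq, which for Cyp3a11 and Cyp2b10 lie inside the gene spans given above.
Cyp2b9 upstream window: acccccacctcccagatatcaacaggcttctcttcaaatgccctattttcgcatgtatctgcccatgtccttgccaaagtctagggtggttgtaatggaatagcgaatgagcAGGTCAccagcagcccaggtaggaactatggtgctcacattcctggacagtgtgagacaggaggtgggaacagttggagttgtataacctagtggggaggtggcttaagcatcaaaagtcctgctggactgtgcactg
Cyp2b10 upstream window: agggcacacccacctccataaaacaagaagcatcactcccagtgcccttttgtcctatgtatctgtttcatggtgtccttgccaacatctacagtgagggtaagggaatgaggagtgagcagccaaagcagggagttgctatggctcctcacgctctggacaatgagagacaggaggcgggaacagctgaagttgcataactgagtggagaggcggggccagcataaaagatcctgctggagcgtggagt
Cyp3a11 upstream window: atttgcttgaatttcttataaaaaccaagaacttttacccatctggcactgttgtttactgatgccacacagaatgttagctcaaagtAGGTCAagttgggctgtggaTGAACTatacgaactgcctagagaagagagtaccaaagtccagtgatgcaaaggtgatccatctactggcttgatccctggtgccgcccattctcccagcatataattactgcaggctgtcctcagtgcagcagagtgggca
Cyp3a13 upstream window: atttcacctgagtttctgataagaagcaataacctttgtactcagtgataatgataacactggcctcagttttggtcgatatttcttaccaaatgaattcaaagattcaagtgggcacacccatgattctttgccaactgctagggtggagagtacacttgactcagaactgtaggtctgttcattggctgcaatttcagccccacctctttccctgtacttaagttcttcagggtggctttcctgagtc
Cyp3a25 upstream window: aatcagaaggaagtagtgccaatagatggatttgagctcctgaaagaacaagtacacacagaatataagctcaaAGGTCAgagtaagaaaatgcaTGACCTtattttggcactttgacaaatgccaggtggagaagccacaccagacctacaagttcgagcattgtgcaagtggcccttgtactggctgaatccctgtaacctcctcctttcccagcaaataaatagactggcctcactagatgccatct
Cyp2b9 held 1 match and Cyp2b10 none, although their windows were identical at 71.4% of aligned positions. Cyp3a11 held AGGTCA from position -162 to -157 and AGTTCA on the other strand from -142 to -137, counted back from the start site. Cyp3a25 held AGGTCA on both strands, from -176 to -171 and from -155 to -150, and Cyp3a13 none. The 3 Cyp3a windows were identical at 52.2 to 57.6% of aligned positions, beside 43.4 to 51.8% between members of different families. Either core was found in 3 of the 8 members' windows (none in Nr1i3, Nr1i2 or Por) and in 24.2% of 32851 promoter windows of the same length. The Por window, chr5:135688895-135689144, lies inside the gene span given above. Cyp3a25 has 2 RefSeq start sites, and the window of 1 is shown. Paired cores were searched on both strands as direct repeats with 3 or 4 bases between them (DR3, DR4) and as an everted repeat with 6 (ER6). They were found in 4, 8 and 3 promoters of all, and in no member's window. A match here is a description of letters and not a binding site. Only these 250 bases were searched, so a window without a match does not mean a gene without a site elsewhere.

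Fasting was compared first in all hepatocytes of a library, which asks whether the receptors and their targets differ between feeding states. No member passed the test over all genes (edgeR quasi-likelihood, Benjamini-Hochberg adjusted over 13998 genes), which itself called 1 gene higher (0.00714%), Cyp4a14, a fatty acid hydroxylase induced by fasting, and none lower (0%). With DESeq2, which called 0.514% of genes higher and 0.636% lower, no member passed either. At an unadjusted p under 0.05, 3 of 8 members were counted (Nr1i3, Por and Cyp2b10, all higher in fasted mice), beside 6.87% of all genes, 3.76% higher and 3.1% lower. In 5 of 8 members (Nr1i3, Nr1i2, Por, Cyp2b10 and Cyp3a25) both fasted libraries lay above both fed ones, which held for 20.7% of all genes, and in no member did both lie below, which held for 15.8%.

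**Figure D1:**
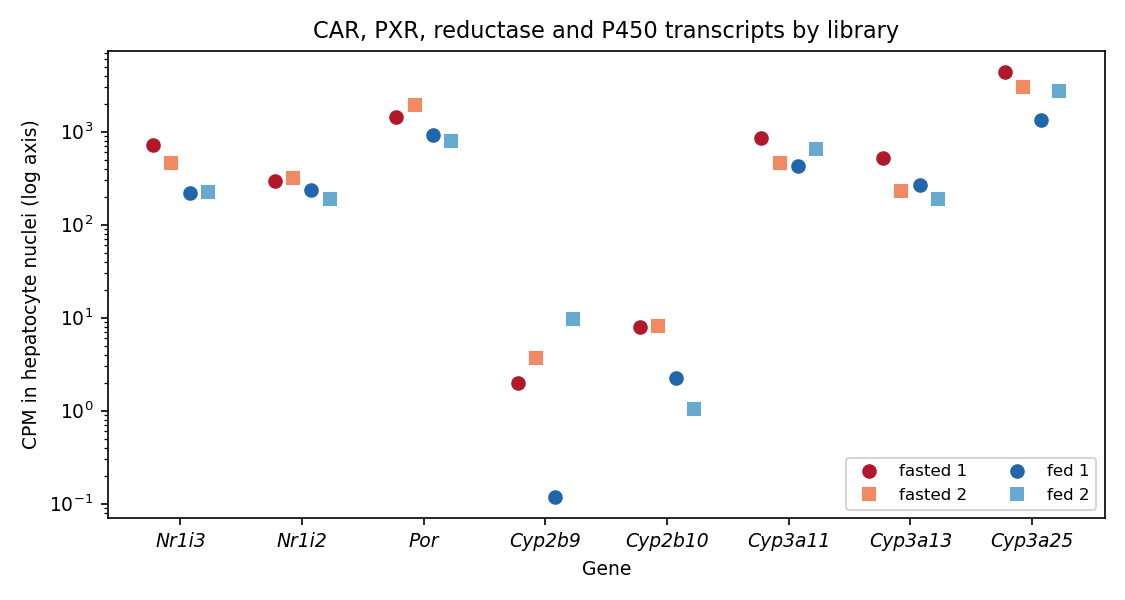
Level of each member in hepatocyte nuclei of the 4 libraries, as CPM of summed UMIs on a log axis; red symbols are fasted and blue symbols fed libraries, 1 point per library. Both red points lie above both blue points for Nr1i3, Nr1i2, Por, Cyp2b10 and Cyp3a25, while the colours mix for Cyp2b9, Cyp3a11 and Cyp3a13.

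Among the receptors, Nr1i3 had the wider gap. Fasted 1 and fasted 2 held 726 and 466 CPM, and fed 1 and fed 2 held 218 and 226 CPM. The fasted libraries were thus the higher pair without overlap, and the 2 fed libraries lay close together while the fasted ones were spread. The log2 difference, fasted minus fed, was 1.38 (SE 0.34) with an edgeR adjusted p of 0.541 and a DESeq2 adjusted p of 0.0820. It was 1.21 without the acute-phase cluster, 1.29 without fed 1 and 1.48 without fed 2. With no filter on low counts, the edgeR adjusted p was 0.0231. Tomm40l, whose reads cannot be told from those of Nr1i3 where the genes overlap unless strand was used in counting, stood at 130 and 47.7 CPM in fasted and at 31.2 and 12.5 CPM in fed libraries. Its log2 difference was 1.99 (SE 0.61, edgeR adjusted p = 0.627), and its part in the Nr1i3 counts was not tested. For Nr1i2 the fasted values were 296 and 321 CPM and the fed values 239 and 191 CPM. Its groups did not overlap, but by a narrow margin, and the log2 difference was 0.49 (SE 0.29, edgeR adjusted p = 0.829). Over the 12 alternative settings that difference ran from 0.40 to 0.59.

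Por, the electron donor of all these enzymes, reached 1448 and 1962 CPM in fasted mice, beside 931 and 790 CPM in fed mice. Both fasted libraries were again the higher ones. The log2 difference was 0.96 (SE 0.33, edgeR adjusted p = 0.647), and 0.87 without the acute-phase cluster, 1.02 without fed 1 and 0.91 without fed 2.

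The Cyp2b genes were near the floor of detection. Cyp2b10, the CAR target, had 167 and 156 UMIs in the fasted libraries (7.97 and 8.11 CPM) and 38 and 7 in the fed ones (2.26 and 1.05 CPM). The fasted libraries agreed closely and lay above both fed libraries. The log2 difference was 2.22 (SE 0.56, edgeR adjusted p = 0.547, DESeq2 adjusted p = 0.0750), and 2.07 without the acute-phase cluster. Without fed 1 it was 2.83 with an edgeR adjusted p of 0.0449, resting on 7 UMIs in the fed library that remained, and without fed 2 it was 1.86 with 0.237. Cyp2b9 had 42 and 71 UMIs in the fasted libraries (2.00 and 3.69 CPM), and 2 and 64 in the fed ones (0.119 and 9.62 CPM). The lowest and the highest library were thus both fed, and they set the direction: the log2 difference was -0.81 (SE 1.48, edgeR adjusted p = 0.995). It was 4.55 without fed 2 (adjusted p = 0.0470), against a single fed library with 2 UMIs, and -1.84 without fed 1. In 1.02 and 0.924% of fasted and 0.346 and 0.195% of fed hepatocytes a Cyp2b10 UMI was left once each nucleus was thinned to 1500 UMIs. Unthinned, these shares were 2.41, 2.44, 0.593 and 0.160% of nuclei.

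The Cyp3a genes had more UMIs and did not share a pattern. Cyp3a25 reached 4393 and 2995 CPM in fasted mice, beside 1321 and 2728 CPM in fed mice. The groups did not overlap, but fasted 2 and fed 2 were close, and fed 1 was the low library. The log2 difference was 0.80 (SE 0.47, edgeR adjusted p = 0.831), and it was 0.75 without the acute-phase cluster, 0.33 without fed 1 and 1.51 without fed 2. Cyp3a11, the PXR target, had fasted values of 854 and 461 CPM and fed values of 430 and 659 CPM. The groups overlapped, with fed 2 above fasted 2, and the log2 difference was 0.21 (SE 0.43, edgeR adjusted p = 0.995). Its sign turned when fasted 1 (-0.27) or fed 1 (-0.12) was left out. For Cyp3a13 the fasted values were 526 and 230 CPM and the fed values 269 and 191 CPM. Only fasted 1 stood above the rest, and the log2 difference was 0.68 (SE 0.44, edgeR adjusted p = 0.859). It was 0.00 without fasted 1 and ran from 0.00 to 1.13 over the 12 alternative settings, with no change of sign. The fed 1 value included the acute-phase cluster, in which Cyp3a13 was at 412 CPM, beside 189 CPM in the largest other cluster of fed 1.

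In fed 1 the acute-phase cluster and the largest other hepatocyte cluster could be set side by side, with 1869 and 2612 nuclei and summed acute-phase levels of 5899 and 756 CPM. Nr1i3 was at 130 CPM in the acute-phase cluster and at 233 CPM in the other. Cyp3a13 went the other way, with 412 against 189 CPM. Por was at 773 against 938 CPM, Nr1i2 at 209 against 261 CPM, Cyp3a11 at 313 against 397 CPM and Cyp3a25 at 1171 against 1351 CPM. Both clusters come from 1 library, so these values have no replicate. Their part in the differences between feeding states was not tested beyond the values without that cluster. The 2 clusters were not matched for position in the lobule, which is read below. Of 11 acute-phase genes tested by position, 6 were called periportal and 0 pericentral. Whether the 2 clusters differ in position was not tested.

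Position in the lobule was read from landmark genes that hold no member: 9 pericentral genes such as Glul, Cyp2e1 and Slc1a2 against 10 periportal genes such as Cyp2f2, Hal and Ass1. Hepatocytes with at least 1500 UMIs were scored after thinning to that depth, 4804, 4220, 4332 and 1535 nuclei in fasted 1, fasted 2, fed 1 and fed 2, and split within each library into 3 equal parts by score, called the periportal, middle and pericentral zones. Of the hepatocytes of fed 2, 41.0% were deep enough. Por and Cyp3a11 were higher in the pericentral zone and Cyp3a13 in the periportal zone. These 3 members passed the test (edgeR with library as a block), while it called 7.69% of 12323 genes higher in the pericentral and 8.41% in the periportal zone. Nr1i3, Por, Cyp3a11 and Cyp3a25 were higher pericentrally in 4 of 4 libraries, which held for 15.8% of all genes, and Cyp3a13 was higher periportally in 4 of 4, which also held for 15.8%.

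**Figure D2:**
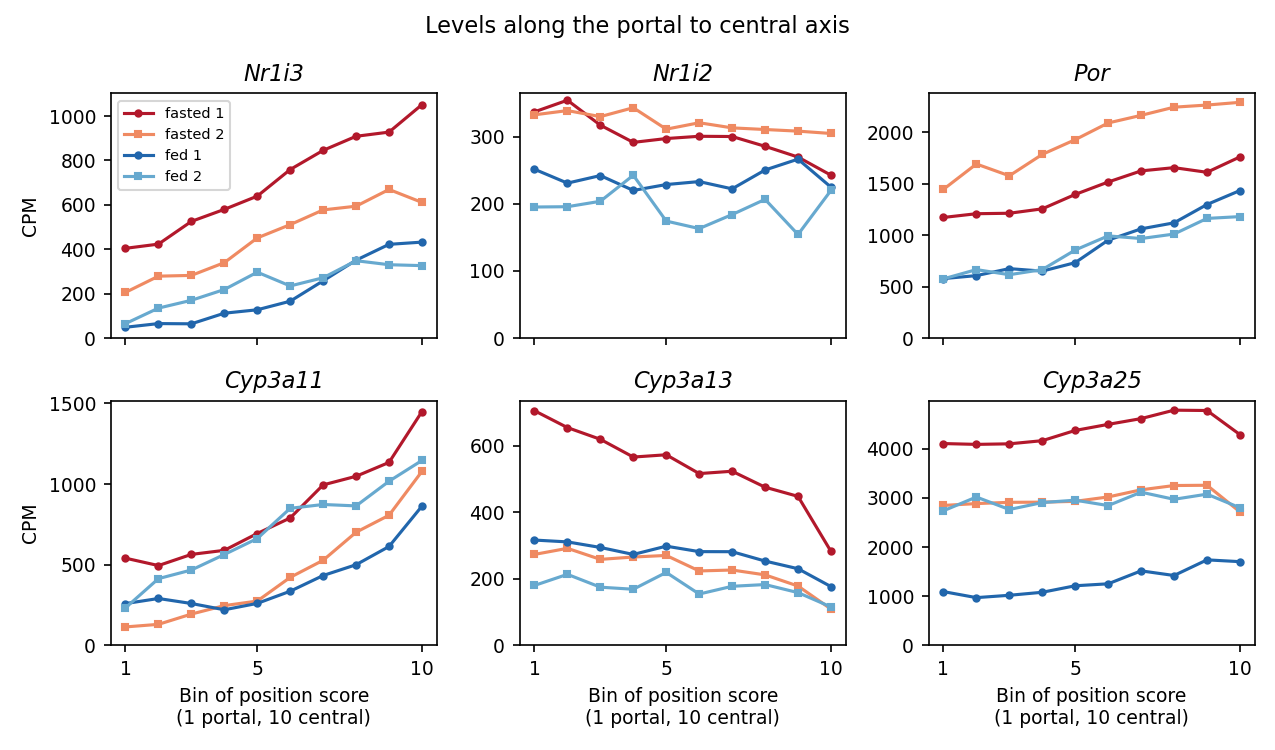
Levels (CPM) of 6 members in 10 equal bins of hepatocytes ordered by position score, from portal (1) to central (10), with 1 line per library (red and orange fasted, blue fed). Nr1i3, Por and Cyp3a11 are higher at the central than at the portal end in every library, Cyp3a13 is lowest in the most central bin, and Nr1i2 and Cyp3a25 vary less, although Nr1i2 spans 354 to 242 CPM in fasted 1 and Cyp3a25 spans 971 to 1739 CPM in fed 1.

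Nr1i3 was graded along the lobule in every library. From the periportal to the pericentral zone it went from 471 to 950 CPM in fasted 1 and from 264 to 622 CPM in fasted 2. In fed 1 it went from 61.8 to 392 CPM, and in fed 2 from 131 to 338 CPM, so the pericentral zone was 2.02, 2.36, 6.35 and 2.59 times the periportal one. The 4 libraries went one way with fed 1 the steepest, and the log2 difference of 1.51 (SE 0.37) had an edgeR adjusted p of 0.107. Without fed 1 it was 1.17 with an edgeR adjusted p of 4.72e-08, and with DESeq2 it was 1.55 with an adjusted p of 0.000408. It passed in only 3 of 13 alternative settings, these 2 among them, and the edgeR adjusted p reached 0.273 in the others. Tomm40l, the overlapping gene, was also pericentral in 4 of 4 libraries, by 1.17 (SE 0.13, edgeR adjusted p = 1.11e-05), and its part in this gradient was not tested. In 10 bins of the score the lowest level of Nr1i3 was in the most portal bin in 4 of 4 libraries. Nr1i2 varied little: it was at 326 and 272 CPM (periportal and pericentral) in fasted 1 and at 336 and 310 CPM in fasted 2. It was at 238 and 246 CPM in fed 1 and at 204 and 194 CPM in fed 2. The periportal zone was slightly the higher one in 3 libraries, and the log2 difference was -0.11 (SE 0.07, edgeR adjusted p = 0.319).

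Por went from 1207 to 1675 CPM in fasted 1, from 1596 to 2247 CPM in fasted 2, from 618 to 1274 CPM in fed 1 and from 625 to 1097 CPM in fed 2. The pericentral zone was the higher one in each library, with a log2 difference of 0.69 (SE 0.10, edgeR adjusted p = 0.000221), and Por passed in 13 of 13 alternative settings. Even the periportal zone of each fasted library lay above the periportal and middle zones of both fed libraries.

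Cyp3a11 went from 529 to 1194 CPM in fasted 1, from 154 to 801 CPM in fasted 2, from 264 to 640 CPM in fed 1 and from 391 to 994 CPM in fed 2. The pericentral level was more than the periportal one in each library, 2.25, 5.21, 2.43 and 2.54 times as high, and the log2 difference was 1.53 (SE 0.26, edgeR adjusted p = 0.0440). This call was close to the threshold and was lost in 6 of 13 alternative settings: without fasted 1 (adjusted p = 0.0998), fed 1 (0.157) or fed 2 (0.155), with no low count filter (0.107), with the outer groups of 5 in place of 3 (0.0551) and with P450 genes left out of the landmarks (0.0709). Cyp3a13 ran the opposite way, from 647 to 421 CPM in fasted 1, from 274 to 179 CPM in fasted 2, from 307 to 224 CPM in fed 1 and from 191 to 158 CPM in fed 2. The periportal zone was higher in all 4 libraries. The log2 difference was -0.53 (SE 0.07, edgeR adjusted p = 4.16e-06), and -0.44 (0.00541) without the acute-phase cluster, in which Cyp3a13 was high. It passed in 13 of 13 alternative settings. Cyp3a25 differed little by position, from 4076 to 4671 CPM in fasted 1, from 2884 to 3143 CPM in fasted 2, from 1022 to 1602 CPM in fed 1 and from 2834 to 2986 CPM in fed 2. The step was in 1 direction but small except in fed 1, with a log2 difference of 0.25 (SE 0.09, edgeR adjusted p = 0.0839). It passed in 3 of 13 alternative settings: with no low count filter (adjusted p = 0.000280), with stored zeros counted as 1 (0.0201) and with the score on counts thinned to 1000 UMIs (0.0410). Of the Cyp3a family, 1 member was thus called pericentral and 1 periportal, and the call for Cyp3a25 depended on the setting.

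The Cyp2b genes gave 1 to 71 UMIs in a pericentral or periportal zone. Cyp2b10 went from 5.06 to 8.53 CPM in fasted 1, from 5.31 to 10.5 CPM in fasted 2, from 2.03 to 1.67 CPM in fed 1 and from 2.17 to 0.660 CPM in fed 2. It was higher pericentrally in the fasted libraries only, but the fed values rest on 1 to 10 UMIs, and the log2 difference of 0.61 (SE 0.28) had an edgeR adjusted p of 0.165. Cyp2b9 showed no common direction, with a log2 difference of -0.20 (SE 0.42, edgeR adjusted p = 0.842) that was 0.44 without fed 2. In fed 2, its highest library, it had 24 UMIs in the periportal, 21 in the middle and 8 in the pericentral zone.

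**Figure D3:**
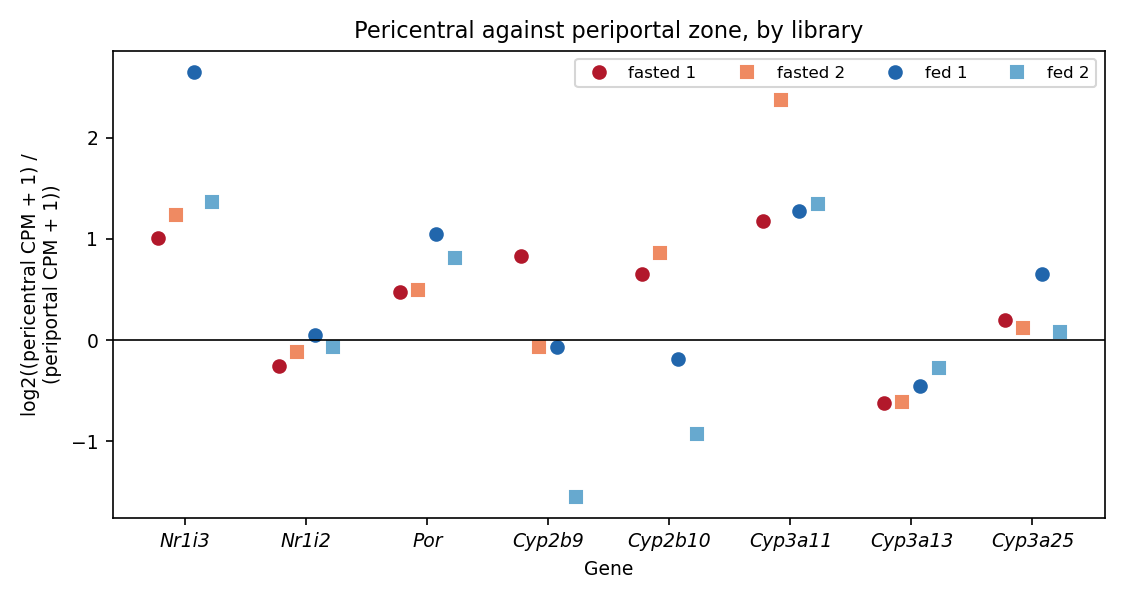
Pericentral over periportal level of each member in each library, as log2 of the ratio of CPM + 1; points above 0 are higher near the central vein, red and orange are fasted and blue fed libraries. All 4 points lie above 0 for Nr1i3, Por, Cyp3a11 and Cyp3a25 and below 0 for Cyp3a13.

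Whether the placement of a member differed between feeding states was tested as the interaction of zone and state. No member passed (edgeR), beside 0.0974% of genes with a higher and 0.138% with a lower pericentral to periportal contrast in fasted mice. With DESeq2 no member passed either. At an unadjusted p under 0.05 the members were Por, Cyp2b9 and Cyp3a13, 3 of 8, beside 7.22% of all genes. For Por the contrast was 0.94 in fed and 0.46 in fasted mice, a log2 difference of -0.49 (SE 0.12, edgeR adjusted p = 0.133). It passed with no low count filter (0.00601), without the P450 landmarks (0.0201) and without fed 2 (-0.62, 0.000378), and did not without fed 1 (-0.33, 0.116). For Nr1i3 the contrast was 2.13 in fed and 1.10 in fasted mice, a difference of -1.03 (SE 0.58, edgeR adjusted p = 0.881). That value was -0.26 without fed 1 and -1.60 without fed 2 (adjusted p = 5.87e-07), so it rested on which fed library was used. For Tomm40l the difference was -0.90 (SE 0.22, edgeR adjusted p = 0.115). For Cyp3a25 the difference was -0.24 (SE 0.17, adjusted p = 0.860). Without fed 2 it was -0.55 (adjusted p = 0.000637), and without fed 1 it was 0.081. The differences for Nr1i2 (-0.23, SE 0.12), Cyp2b9 (2.05, SE 0.83), Cyp2b10 (1.33, SE 0.71), Cyp3a11 (0.40, SE 0.57) and Cyp3a13 (-0.27, SE 0.12) had edgeR adjusted p-values between 0.556 and 0.954.

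The same values read as fasted over fed levels in each zone give the other side of that comparison. For Nr1i3 the mean fasted level was 3.82 times the fed one in the periportal, 2.88 times in the middle and 2.15 times in the pericentral zone. For Por these ratios were 2.26, 2.00 and 1.65. Nr1i2 (1.5, 1.51 and 1.32) and Cyp3a25 (1.80, 1.75 and 1.70) varied less along the lobule. For Cyp2b10 the ratio was 2.47 in the periportal, 5.38 in the middle and 8.17 in the pericentral zone, on few fed UMIs. For Cyp3a11 it was 1.04, 1.08 and 1.22, and for Cyp3a13 1.85, 1.71 and 1.57. Each is a ratio of means over the 2 libraries of a group and does not show their spread. Zones were cut within each library, so zones of the same name need not hold the same positions. The median score was -0.167 in fasted 1, -0.194 in fasted 2, -0.0912 in fed 1 and 0.307 in fed 2. In both the periportal and the pericentral zone, fed 2 lay above fasted 2 for Cyp3a11, and fed 1 lay above fasted 2 for Cyp3a13. For Nr1i3 in the periportal zone, fed 1 was the lowest library.

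The other genes of the pathway were read from 5 lists, to be set beside the shares over all genes: 20.7% with both fasted libraries higher, 15.8% with both lower, 7.69% called pericentral and 8.41% periportal. Of 16 partners and coregulators none passed the fasting test (2 at an unadjusted p under 0.05). In 3 the fasted libraries were both higher, near the share over all genes, and in 1 both lower, with a median log2 difference of -0.13 beside -0.01 over all genes. Ppargc1a, a coactivator of the fasting response, was at 266 and 275 CPM in fasted and at 144 and 57.4 CPM in fed libraries, a log2 difference of 1.42 (SE 0.44, edgeR adjusted p = 0.632). The transcription factor Foxo1 differed by 0.48 and the coactivator Ncoa1 by -0.36. By position 2 of the 16 were called pericentral and 3 periportal. The receptors' partner Rxra was pericentral by 0.66 (SE 0.09, edgeR adjusted p = 0.000239). The growth arrest gene Gadd45b was pericentral by 1.33 (SE 0.38, edgeR adjusted p = 0.0176), on at most 4 UMIs in a zone of either fed library. That call was lost with DESeq2 (adjusted p = 0.282), without fasted 2 (0.260) and with 5 groups in place of 3 (0.0509). Ppargc1a was periportal, with -1.0 (SE 0.10, edgeR adjusted p = 1.42e-05). Nr0b2, which encodes the repressor SHP, was the 1 gene of these lists that passed the interaction test, with a contrast of 0.50 in fed and -0.53 in fasted mice (difference -1.02, SE 0.18, edgeR adjusted p = 0.00521). That call was lost in 5 of 13 alternative settings, among them DESeq2 (adjusted p = 1.00) and leaving out fasted 1 (0.852), fasted 2 (0.337) or fed 1 (0.383).

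Of the 9 other Cyp2b and Cyp3a genes only 2 passed the filter on low counts, and neither passed the fasting test, with groups that overlapped. Cyp3a59, which shares sequence with Cyp3a25, was at 332 and 359 CPM in fasted and at 58.3 and 392 CPM in fed libraries, with fed 1 alone low, and it was pericentral by 0.64 (SE 0.07, edgeR adjusted p = 7.54e-07). Of 9 other P450 genes none passed for fasting among 8 tested (2 at an unadjusted p under 0.05, median 0.13). The fasted libraries were both higher for Cyp2c54 (log2 difference 1.26) and Cyp2e1 (0.39), both in fatty acid and drug oxidation. They were both lower for 2 genes, among them Cyp1a2, the caffeine-metabolizing enzyme, which had 27.3 CPM in fasted 1, 15.7 in fasted 2, 30.2 in fed 1 and 111 in fed 2. Its log2 difference of -1.80 was -0.46 without fed 2 and -2.48 without fed 1 (edgeR adjusted p = 0.00188). By position all 6 that were tested and are not landmarks were called pericentral, with a median log2 difference of 2.99. Cyp2a5 led with 4.97, followed by Cyp2c29 with 3.76 and Cyp2c37 with 3.63. The call for Cyp2c29 (edgeR adjusted p = 0.0118) was lost without fasted 2 (0.0592) or fed 2 (0.0502).

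Of 7 genes of heme and electron supply none passed for fasting (1 at an unadjusted p under 0.05), and in 3 both fasted libraries were lower, with a median of -0.42. They included the cytochrome b5 reductase Cyb5r3 (-0.88, SE 0.42) and the mitochondrial cytochrome b5 gene Cyb5b (-0.80, SE 0.44), both opposite in sign to Por. Cyb5b was at 145 and 188 CPM in fasted and at 193 and 368 CPM in fed libraries, so fasted 2 and fed 1 were close. Its difference ran from -1.24 to -0.17 over the 12 alternative settings. By position 3 of 7 were called pericentral: Blvrb, a biliverdin reductase, by 1.98, the microsomal cytochrome b5 gene Cyb5a by 0.82 and Cyb5b by 0.29. Of 16 tested genes of conjugation and transport none passed for fasting (4 at an unadjusted p under 0.05, median 0.16), with 3 higher and 3 lower without overlap. The organic anion importer Slco1a4 differed by 1.54 (539 and 607 CPM in fasted, 111 and 267 CPM in fed libraries), the glutathione transferase Gsta2 by 1.37 and the carboxylesterase Ces2c by -1.91. By position 10 of 15 were called pericentral and none periportal, among them the exporter Abcc4 by 2.96, Ces2c by 2.71 and Aldh1a1, which makes retinoic acid, by 1.29.

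**Figure D4:**
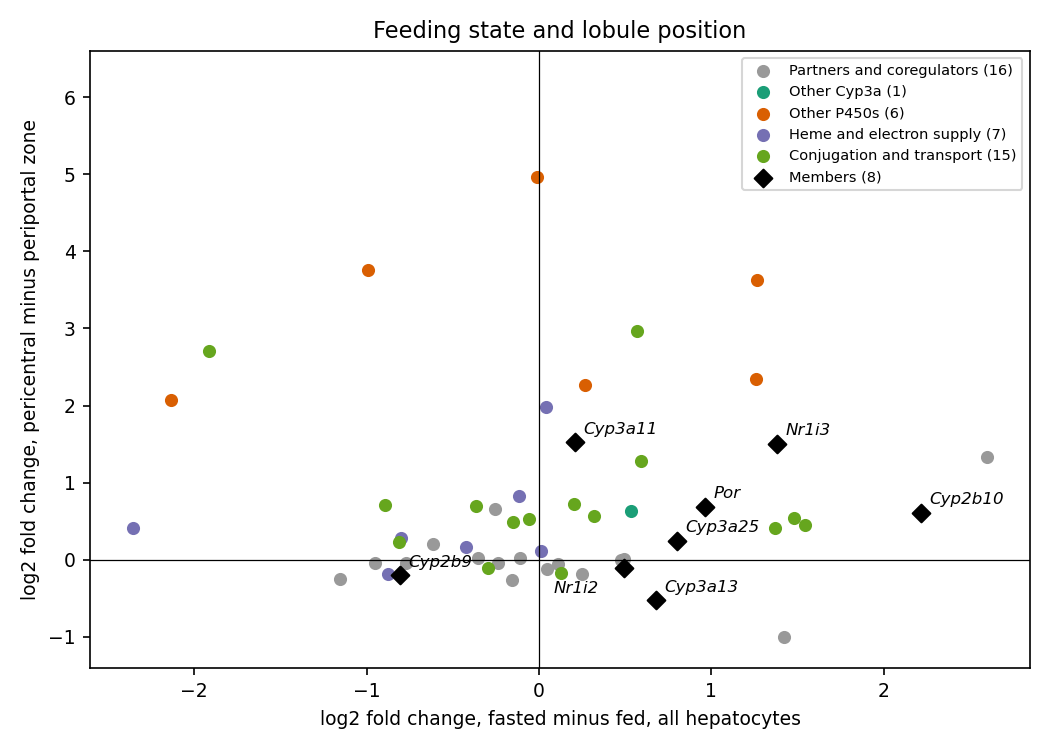
Log2 difference between fasted and fed libraries over all hepatocytes (horizontal) against log2 difference between pericentral and periportal zones (vertical) for the 8 members (black diamonds, labelled) and the genes of the 5 lists that were tested for both and are no landmark (coloured points). The 3 highest points are the P450 genes Cyp2a5, Cyp2c29 and Cyp2c37, up to 4.97, and the 2 lowest are Ppargc1a at -1.0 and Cyp3a13 at -0.53.

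The genes whose levels were most like those of a member were taken over 12 hepatocyte sums, 4 libraries by 3 zones, among 7826 genes. The sums share libraries and nuclei depth, so Pearson's r of log2(CPM + 1) is a description. For Nr1i3 they were Rdh16, a retinol dehydrogenase, with r = 0.977, the phospholipid exporter Abcb4 with 0.968 and Trim24 with 0.966. For Nr1i2 they were Klf3 (0.975), E030018B13Rik (0.974) and Nlrp12 (0.973), and for Por Elavl1 (0.965), the lipid phosphatase gene Lpin2 (0.962) and Hnf1aos1 (0.960). Among the genes most like Cyp3a11 were Gm30849 (0.942) and the P450 gene Cyp2c50 (0.937), and Cyp3a13 was nearest to Rabgap1l (0.967), Zfp280d (0.953) and Aspa (0.953). Cyp3a25 was nearest to the prolactin receptor gene Prlr (0.985), the bile acid and steroid reductase gene Akr1d1 (0.975) and Fign (0.973).

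Transcripts of the members were also counted in nuclei of other cell types. Over all other named types together, the level of Nr1i3 was 25.5 to 55.0% of that in hepatocytes of the same library, that of Nr1i2 38.7 to 58.4% and that of Por 30.9 to 52.5%. The same shares were 34.1 to 66.3% for Alb and 36.3 to 70.2% for Hnf4a, hepatocyte markers that these cells should lack. For Cyp3a13 the share was 46.1 to 63.8% and for Cyp3a25 31.6 to 68.1%. Cyp3a11 was at 107% in fasted 1 and 106% in fed 1, and at 51.4% in fasted 2 and 70.8% in fed 2, so in fasted 1 and fed 1 it was no higher in hepatocytes than elsewhere. In the other direction, the summed level of 9 endothelial markers was 4.94 to 53.5 CPM in hepatocytes and 4486 to 9285 CPM in endothelial nuclei. What part of the members' counts in hepatocytes came from outside the nucleus was not tested.

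**Figure D5:**
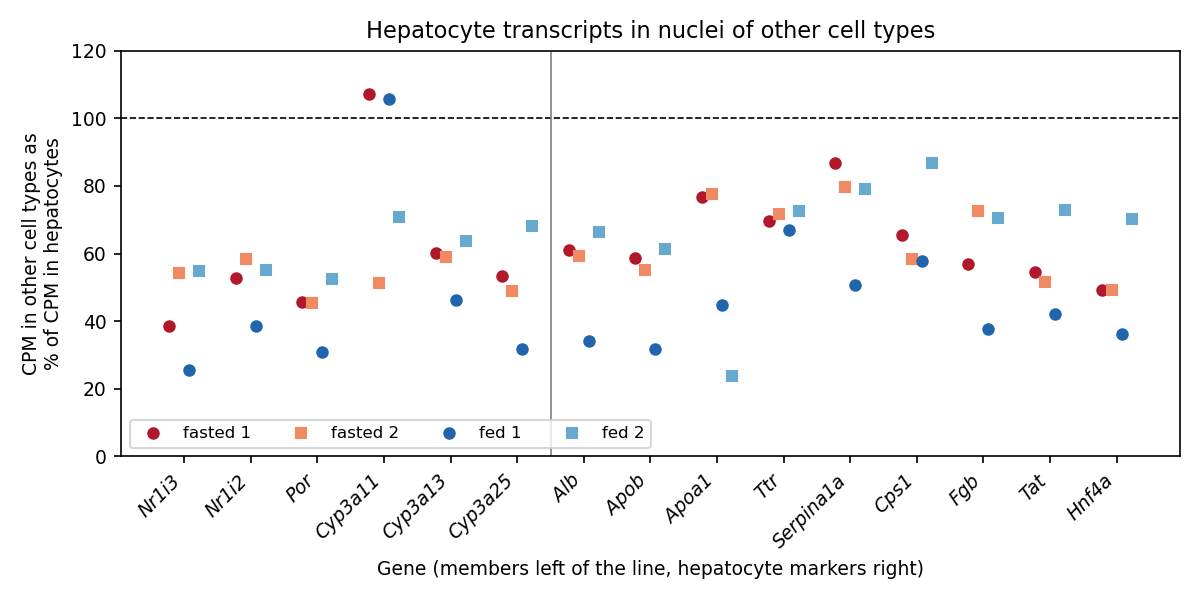
Level (CPM) in all other named cell types together as a percentage of the level in hepatocytes of the same library, for 6 members (left of the line) and 9 hepatocyte marker genes (right); the dashed line marks equal levels. Cyp3a11 reaches 107 and 106% in fasted 1 and fed 1, above the 9 hepatocyte markers in these libraries. Nr1i3 (38.7 and 25.5%) and Por (45.6 and 30.9%) lie below all 9 markers in the same 2 libraries. In fasted 2 Por (45.3%) does too, but Nr1i3 (54.2%) lies above Hnf4a (49.1%) and Tat (51.5%). In fed 2 Nr1i3 (55.0%) and Por (52.5%) lie above Apoa1 (23.7%).

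Levels in single cell types rest on far fewer nuclei, and since the types were clustered from the same nuclei they are a description. The 6 types with at least 20 nuclei in each library were compared. Nr1i3 was at 409 ± 240 CPM in hepatocytes (mean ± SD, n = 4 libraries), followed by 250 ± 181 CPM in B and plasma cells and 194 ± 138 CPM in macrophages. Endothelial cells (164 ± 73.2 CPM), stellate cells (156 ± 130 CPM) and cholangiocytes (146 ± 150 CPM) came last, and neighbours in this order differed by less than their spread. Por was at 1283 ± 534 CPM in hepatocytes and between 451 ± 169 (endothelial cells) and 929 ± 449 CPM (B and plasma cells) elsewhere. Nr1i2 was at 262 ± 58.3 CPM in hepatocytes and at 95.6 ± 53.4 (stellate cells) to 206 ± 71.5 CPM (B and plasma cells) in the other types. Cyp3a25 was at 2859 ± 1259 CPM in hepatocytes and 1253 to 2264 CPM elsewhere. Cyp3a13 was at 304 ± 151 CPM in hepatocytes and 119 to 238 CPM elsewhere. Cyp3a11 was at 601 ± 197 CPM in hepatocytes, beside 682 ± 414 CPM in B and plasma cells and 410 to 512 CPM in the other 4 types. Hepatocytes held the highest level in 4 of 4 libraries for Nr1i2 and Cyp3a13, in 3 of 4 for Nr1i3, Por and Cyp3a25, and in 1 of 4 for Cyp3a11. Cyp2b9 and Cyp2b10 gave at most 7 UMIs in any other type.

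Shares of nuclei gave the same picture for Nr1i3. A Nr1i3 UMI was found in 72.7 and 62.9% of fasted and in 35.2 and 26.0% of fed hepatocytes, and in 57.6, 43.0, 22.6 and 27.9% once nuclei were thinned to 1500 UMIs. Thinning left out 595, 336, 731 and 2210 shallower hepatocytes. In endothelial nuclei, with median depths of 756 to 886 UMIs against 1275 to 3238 in hepatocytes, the unthinned shares were 13.4, 18.5, 4.83 and 11%. The thinned endothelial shares were 20.4, 21.2 and 5.08% in fasted 1, fasted 2 and fed 1. In fed 2 only 13 endothelial nuclei were deep enough, and 38.5% of them (95% exact interval 13.9 to 68.4%, counting error only) had a UMI. That interval holds the hepatocyte share of 27.9%, so thinned shares could not set hepatocytes above endothelial nuclei in that library. The fasted shares lay above the fed ones in hepatocytes at either depth.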

How the data were processed

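Nuclear RNA of the 4 libraries was counted by the authors with Cell Ranger 6.0 on mm10, per the submitters' processing notes. The deposited matrices hold raw UMI counts per gene and nucleus. Whether introns and strand were used in counting was not stated in the labels. Of the stored entries 13.2 to 17.0% were 0, which counted as 0 here and as 1 in an alternative.

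Nuclei were kept with 500 or more genes and mitochondrial UMIs of 5% or less. Scrublet's automatic threshold marked 0 or 1 nucleus in 3 libraries, so the highest doublet scores were removed at 0.8% per 1000 barcodes. Nuclei were clustered (scanpy 1.11.5, Leiden, 2000 variable genes, 30 components, resolution 1.0) and named from marker lists. Cyp3a25 was among the variable genes, and the other 7 members were not. Position was the mean z of pericentral minus periportal landmarks.

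UMIs were summed per library (and lobule zone), and tested with edgeR 4.0.16 (quasi-likelihood, TMM, filterByExpr, Benjamini-Hochberg, threshold 0.05). Position fits had library as a block. The SE given for an edgeR fit is the absolute log2 difference divided by the square root of its F statistic. DESeq2 1.42.0, other scalings and filters, omitted libraries, the replicate number as a block, and other scores were alternatives. All 8 members are named. From each pathway list, up to 3 genes are named by largest log2 difference: for fasting those without overlap and with at least 5 CPM on average, for position those that passed. Genes that passed for fasting or in the interaction are also named. The 3 most alike genes had at least 10 CPM, and 1 of those of Cyp3a11 is not reported here. Members and lists were chosen with earlier results of these data known.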

Additional observations from a re-analysis of the deposited data

Results flagged for a closer look

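Nr0b2, which encodes SHP, a repressor that acts on CAR, PXR and other receptors, was the 1 gene of the lists whose pericentral to periportal contrast differed between feeding states by the interaction test. It was at 71.5 CPM in the periportal and 109 CPM in the pericentral zone of fed 1, and at 61.4 and 67.3 CPM in fed 2. In fasted 1 the same values were 93.3 and 64.2 CPM, and in fasted 2 they were 23.2 and 17.3 CPM. Both fed libraries were thus higher pericentrally and both fasted ones periportally. The difference of the contrasts was -1.02 on the log2 scale (SE 0.18, edgeR adjusted p = 0.00521). It was no longer past the threshold with DESeq2 (adjusted p = 1.00), without fasted 1 (0.852), fasted 2 (0.337) or fed 1 (0.383), or with 5 groups in place of 3 (0.0630).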

How the results depend on the processing

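With 2 libraries a group, the number of genes called for fasting moved by over 1.5 times in 9 (higher) and 6 (lower) of 12 alternative settings. Against 1 higher and 0 lower, it was 0 higher with DESeq2 size factors or stored zeros counted as 1, 147 higher and 129 lower with no low count filter, and 72 and 89 with DESeq2. Leaving out 1 library gave 4 to 294 higher and 0 to 184 lower. Against 948 pericentral and 1036 periportal calls, DESeq2 gave 669 periportal, and leaving out 1 library gave 704 to 920 and 662 to 968. The interaction, with 12 higher and 17 lower contrasts in fasted mice, gave 33 and 48 with no filter and 1 and 7 with DESeq2. It gave 19 higher with counts thinned to 1000 UMIs, 25 and 38 without P450 landmarks, and 0 to 38 and 0 to 93 without 1 library. The remaining arm of 1 library was then assumed to vary like the other group.

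The replicate block gave 94 higher and 80 lower genes for fasting. Deviations of same-numbered libraries correlated at r = 0.669 over 7881 genes. The labels name no batch and there are only 2 pairs, so whether same-numbered libraries share more than a number was not tested. The block turned Cyp2b9 (0.51) and changed no member's call.

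Directions that turned when 1 library was left out were those of Cyp2b9 without fed 2 (fasting, -1.84 to 4.55 over the 4 libraries; position, -0.78 to 0.44) and of Cyp3a11 for fasting without fasted 1 or fed 1 (-0.27 to 0.64). The interaction turned for Cyp3a11 without fasted 2 (-0.15 to 1.02) and for Cyp3a25 without fed 1 (-0.55 to 0.081). The causes were not tested. Depth limits the Cyp2b genes (2 to 167 UMIs a library) and fed 2.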

Other observations

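Cyp2a4, a steroid hydroxylase gene that did not pass the filter on low counts, had 0.0955 CPM in fasted 1, 0.104 in fasted 2, 0.119 in fed 1 and 1.65 in fed 2. Cyp2b9 was at 2.00, 3.69, 0.119 and 9.62 CPM in the same order. Both were thus highest in fed 2, and both were chosen here after their values were seen. Cyp2b13, Cyp3a16, Cyp3a41a, Cyp3a41b and Cyp3a44, other members of the same families, were at no more than 0.191 CPM in any library.

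Cyp3a25 and its neighbour Cyp3a59 were both lowest in fed 1 (1321 and 58.3 CPM), and both stood higher in fed 2 (2728 and 392 CPM). The 2 genes share 25.2% of the 50-base stretches of Cyp3a25, and how far this sharing bears on their counts was not tested.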
